A study of Homo sapiens with 24 samples.

Results

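DIS3, DIS3L and DIS3L2 are the human members of the DIS3 family of 3'-to-5' exoribonucleases, enzymes that degrade RNA from its 3' end. Their mRNAs were followed through sucrose gradient fractions of 293T cells. The 3 genes were found by matching the Ensembl identifiers of the count table to gene symbols, which gave 3 of 61853 rows, and all 3 passed the filter on low counts. The cells were 293T, an embryonic kidney line. Every library came from cells in which DIS3 was knocked down with the hairpin DIS3-sh2 and then rescued with DIS3 WT or with DIS3 D146N, so cells without the knockdown were not analysed here. The 2 rescues were each sampled in fractions 3, 4, 7 and 8, with 3 biological replicates per fraction, giving 24 ribosomal RNA depleted libraries of cytoplasmic RNA. Unstated in the labels are the end of the gradient at which numbering began, which particles a fraction held, how the rescue was expressed, or whether a rescue line was 1 clone.

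DIS3 gives the mostly nuclear form of the RNA exosome its catalytic activity, with an exonuclease centre and an endonuclease (PIN) domain. The residue changed in D146N lies in the PIN domain. DIS3L is its paralog in the cytoplasmic exosome, where the SKI complex feeds it mRNA. DIS3L2 lacks the PIN domain, works without the exosome and prefers RNAs that terminal uridyltransferases have tailed with uridines, such as precursors of the let-7 microRNA.

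The fraction labels did not mark the same RNA in the 2 rescues. Over the 18907 tested genes, libraries of WT fractions 3 and 4 correlated with those of D146N fractions 7 and 8 at a Pearson r of 0.983 to 0.986 across genes, but with D146N fractions 3 and 4 at 0.817 to 0.826. WT fractions 7 and 8 likewise correlated with D146N fractions 3 and 4 at 0.959 to 0.979 and with D146N fractions 7 and 8 at 0.747 to 0.770. Genotype, the numbering of the fractions and an exchange of labels therefore cannot be told apart in a comparison within 1 fraction label. WT fraction 8 replicate 3 stood apart from its group, with a lowest correlation of 0.964 to its replicates, where the other groups reached at least 0.988. Library totals ran from 21.2 M to 32.99 M counts. Of 6 markers set for 293T, VIM, KRT8, KRT18, LIN28B and PAX2 were read in every library and NEFM in all but 1, with medians from 0.239 CPM (PAX2) to 110 CPM (VIM). Leukocyte CD3E was at 0 in all 24 libraries and PTPRC in 23. The hepatocyte marker ALB had a median of 71.2 CPM, whereas APOA1 and TTR had 0.744 and 0.237 CPM. The 3 hepatocyte markers summed to 116 to 146.4 CPM in WT fractions 3 and 4 and D146N fractions 7 and 8. Elsewhere they summed to 4.74 to 28.0 CPM, with the 28.0 in WT fraction 8 and at most 8.03 in the other groups. The fibroblast markers COL1A1 and COL3A1 were read in every library and summed to 9.67 to 14.8 CPM in the same high groups and to 0.273 to 0.996 CPM elsewhere, and HBB reached 1.37 CPM and was at 0 in 14 libraries. Their part in the results was not tested.

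Levels are CPM, counts scaled to the same total in each library, and errors are standard deviations (SD) over the 3 libraries of a group. DIS3, the knocked down and rescued gene (ENSG00000083520.15, hg38 chromosome 13, 72752169 to 72781900), was high in WT fractions 3 and 4 and in D146N fractions 7 and 8. In WT fraction 3 its replicates 1 to 3 had 91.5, 112 and 91.4 CPM, and in WT fraction 4 they had 96.0, 94.9 and 94.5. In WT fraction 7 they had 4.54, 5.03 and 5.23 CPM, and in WT fraction 8 they had 6.28, 5.48 and 5.88. Every library of fractions 3 and 4 thus lay far above every library of fractions 7 and 8. D146N showed the opposite order. Its replicates had 7.79, 8.34 and 9.63 CPM in fraction 3, 8.47, 9.46 and 9.45 in fraction 4, 86.7, 115 and 102 in fraction 7, and 103, 94.0 and 95.5 in fraction 8. The 4 high groups had means from 95.1 ± 0.764 CPM (SD, n = 3, WT fraction 4) to 101 ± 13.9 (D146N fraction 7), and neighbours in their order overlapped. Among the low groups the libraries of D146N fraction 3 (8.59 ± 0.944) lay above those of WT fraction 8 (5.88 ± 0.403), and these above those of WT fraction 7 (4.93 ± 0.359). A row of gene counts joins reads of the endogenous transcript with any from the rescue construct, so these values do not measure the knockdown. In bulk fractions, fewer cells holding an mRNA and less of it per cell also cannot be told apart.

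DIS3L (ENSG00000166938.13, chromosome 15, 66293309 to 66333898) followed the same order of high and low groups. In WT its replicates had 33.7, 26.9 and 27.4 CPM in fraction 3 and 25.1, 27.9 and 23.5 in fraction 4. They had 2.07, 1.83 and 1.76 CPM in fraction 7 and 2.26, 2.25 and 2.58 in fraction 8. Like DIS3, the cytoplasmic exosome nuclease thus had every WT library of fractions 3 and 4 far above every one of fractions 7 and 8. In D146N its replicates had 2.88, 2.70 and 2.50 CPM in fraction 3, 3.42, 2.52 and 3.03 in fraction 4, 27.4, 29.5 and 26.1 in fraction 7, and 30.8, 30.5 and 27.4 in fraction 8. The high groups, from 25.5 ± 2.23 to 29.5 ± 1.90 CPM (SD, n = 3), again overlapped in order, and so did D146N fraction 3 (2.70 ± 0.188) and WT fraction 8 (2.36 ± 0.184).

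DIS3L2 (ENSG00000144535.20, chromosome 2, 231961713 to 232344350) was spread more evenly in CPM on library totals, the only scale used in this paragraph. In WT its replicates had 7.37, 9.88 and 5.85 CPM in fraction 3 and 6.92, 8.20 and 7.13 in fraction 4. They had 2.97, 2.84 and 3.31 CPM in fraction 7 and 2.91, 2.59 and 3.05 in fraction 8. The WT fractions still did not overlap between the pairs, but they lay close together. In D146N its replicates had 1.64, 1.75 and 2.27 CPM in fraction 3, 1.39, 2.06 and 2.76 in fraction 4, 7.37, 8.30 and 8.79 in fraction 7, and 7.80, 7.74 and 8.76 in fraction 8. Among the low groups the rescues changed places against DIS3 and DIS3L: WT fraction 7 (3.04 ± 0.241 CPM, SD, n = 3) and WT fraction 8 (2.85 ± 0.236) stood above D146N fraction 4 (2.07 ± 0.688) and D146N fraction 3 (1.89 ± 0.336). Each of these neighbours overlapped. DIS3L2 rested on the fewest reads, 39 to 260 per library, against 53.5 to 836 for DIS3L and 141 to 2952.5 for DIS3. Its lowest count, 39 in D146N fraction 4 replicate 1, has an exact Poisson 95% interval of 27.7 to 53.3, which covers counting error only.

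**Figure D1:**
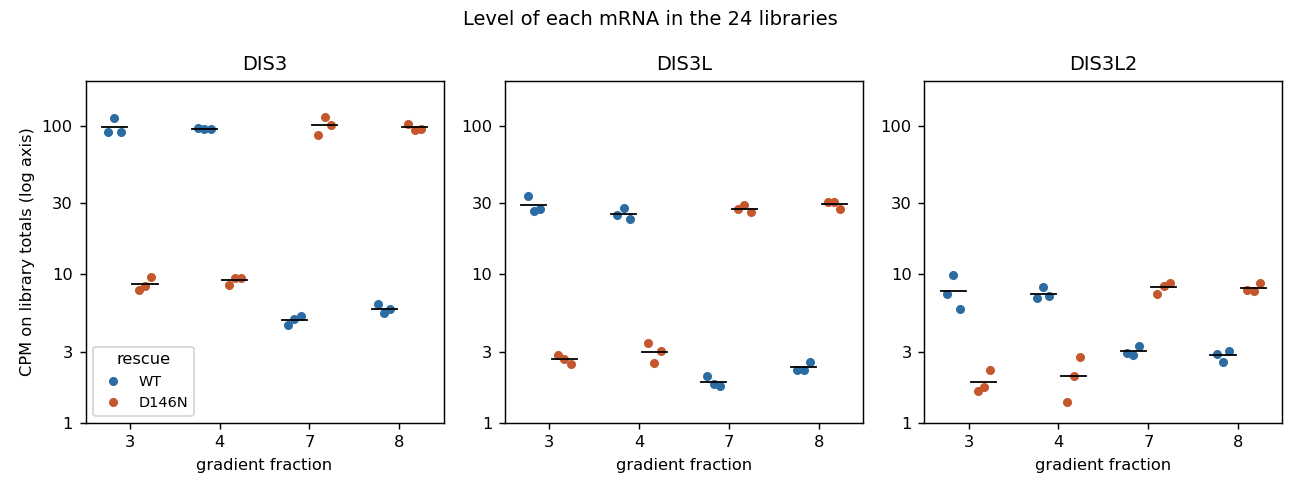
CPM on library totals (log axis) of DIS3, DIS3L and DIS3L2 by gradient fraction, with 1 point per library, blue for the WT rescue, orange for the D146N rescue and a black line at the mean of 3. DIS3 and DIS3L drop by an order of magnitude between the fraction pairs in opposite directions in the 2 rescues, whereas DIS3L2 stays between 1.39 and 9.88 CPM.

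The mean over fractions 3 and 4 was 17.9 times that over fractions 7 and 8 in WT for DIS3, 12.9 times for DIS3L and 2.57 times for DIS3L2. In D146N the mean over fractions 7 and 8 was 11.2 times that over fractions 3 and 4 for DIS3, 10.1 times for DIS3L and 4.11 times for DIS3L2. Expressed per set of 4 libraries of 1 rescue and replicate number, fractions 7 and 8 held 5.31% ± 0.424 (SD, n = 3) of the summed CPM of DIS3 in WT and 91.8% ± 0.545 in D146N. For DIS3L these shares were 7.22% ± 0.554 and 90.9% ± 0.927, and for DIS3L2 28.4% ± 4.93 and 80.6% ± 2.83. They are shares of CPM and not of molecules, since the RNA amount per fraction is not in the counts. The sets join libraries by replicate number, which did not pair them (see the last paragraph), so the SD depends on that grouping. On library sizes scaled by TMM (trimmed mean of M values, which sets the typical gene to no change) the shares of DIS3 became 26.5% and 59.6%, those of DIS3L 33.2% and 57.0%, and those of DIS3L2 71.6% and 35.6%.

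The scaling weighed on every comparison between a high and a low group, because TMM factors were near 2.5 to 2.8 in the high groups and 0.349 to 0.531 in the low groups. In the contrast of fractions 7 and 8 with 3 and 4, the median of all genes was -0.18 (log2) in WT and 0.10 in D146N after TMM, but -2.83 and 3.00 on library totals. DIS3 and DIS3L kept their direction on both scales. DIS3L2 turned over, since it was enriched in WT fractions 3 and 4 as a share of the library but less so than the typical gene.

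Fractions 7 and 8 were set against 3 and 4 within each rescue with edgeR's quasi-likelihood test, fitted to all 24 libraries and all genes with Benjamini-Hochberg adjustment. In WT, DIS3 fell by 1.48 on the log2 scale after TMM (SE 0.08, adjusted p 5.75e-18, percentile 11.2 among tested genes) and stood at -4.17 on library totals. DIS3L fell by 1.01 (SE 0.10, adjusted p 1.01e-11, percentile 23.0) and stood at -3.69 on library totals. DIS3L2 rose by 1.32 after TMM (SE 0.13, adjusted p 6.02e-11, percentile 77.0), but changed by -1.36 on library totals. All 3 genes were called, as were 73.9% of all genes tested, and the libraries of the 2 fraction pairs did not overlap for any of the 3, as for 55.1% of all genes after TMM and 78.7% on library totals. Without WT fraction 8 replicate 3 the changes after TMM were -1.42, -0.98 and 1.36.

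In D146N, DIS3 rose by 0.56 after TMM (SE 0.08, adjusted p 1.85e-07, percentile 75.2) and by 3.49 on library totals. DIS3L rose by 0.40 (SE 0.09, adjusted p 0.000369, percentile 66.5) and by 3.33 on library totals. DIS3L2 fell by 0.88 after TMM (SE 0.14, adjusted p 2.22e-06, percentile 24.4) and stood at 2.04 on library totals. All 3 were called, as were 60.2% of all genes tested, and none overlapped between the fraction pairs, as for 43.1% of all genes after TMM and 83.9% on library totals. The difference of the 2 fraction contrasts, D146N minus WT, was 2.04 for DIS3 (SE 0.11, adjusted p 5.88e-18), 1.42 for DIS3L (SE 0.13, adjusted p 9.58e-12) and -2.20 for DIS3L2 (SE 0.20, adjusted p 2.26e-12), with 77.1% of all genes called. Without WT fraction 8 replicate 3 it was 1.996, 1.39 and -2.22. On library totals it was 7.65, 7.02 and 3.40, so its sign for DIS3L2 also turned with the scaling.

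**Figure D2:**
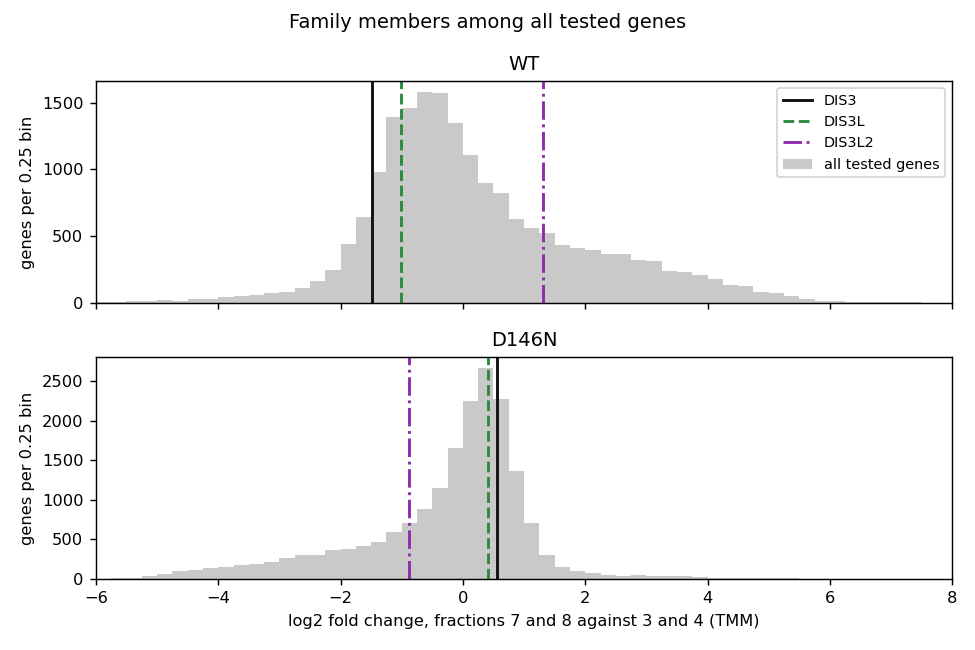
Number of tested genes per bin of log2 fold change after TMM in fractions 7 and 8 against 3 and 4, for WT (top) and D146N (bottom), with lines at DIS3, DIS3L and DIS3L2. In WT the lines stand at -1.48, -1.01 and 1.32, and in D146N at 0.56, 0.40 and -0.88, with DIS3L2 on the other side of the bulk of genes from DIS3 and DIS3L in both.

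A ratio of 2 genes counted in 1 library does not depend on how libraries are scaled, although its level depends on transcript lengths, which were not used here, so only its changes between groups are compared. DIS3 counts were 13.1 ± 2.23 (SD, n = 3) times those of DIS3L2 in WT fraction 3, 12.9 ± 1.20 in WT fraction 4, 12.4 ± 1.23 in D146N fraction 7 and 12.1 ± 1.17 in D146N fraction 8. In the low groups the ratio was 1.63 ± 0.119 in WT fraction 7 and 2.07 ± 0.119 in WT fraction 8, against 4.60 ± 0.311 and 4.71 ± 1.34 in D146N fractions 3 and 4. The 4 high groups overlapped in this ratio, and both D146N low groups lay above both WT low groups in every library. The difference between those low groups was not tested as a ratio, and how often other gene pairs separate in this way was not counted.

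The ratio of DIS3 to DIS3L moved much less, from 3.31 ± 0.209 to 3.75 ± 0.318 in the high groups, with 3.41 ± 0.732 in WT fraction 3 and 3.65 ± 0.419 in D146N fraction 7 between them. It was 2.63 ± 0.384 and 2.50 ± 0.252 in WT fractions 7 and 8 and 3.21 ± 0.582 and 3.12 ± 0.635 in D146N fractions 3 and 4. The ratio of DIS3L to DIS3L2 fell below 1 only in WT fractions 7 and 8, at 0.626 ± 0.0790 and 0.834 ± 0.0474, against 1.47 ± 0.342 and 1.59 ± 0.754 in D146N fractions 3 and 4 and 3.42 to 3.99 in the high groups. Between rescues within a fraction label, the log2 ratio of DIS3 to DIS3L2 differed by -1.50, -1.49, 2.93 and 2.54 in fractions 3, 4, 7 and 8. That of DIS3L to DIS3L2 differed by -1.42, -1.20, 2.45 and 2.13, and neither pair of genes overlapped between rescues in any fraction. For DIS3 to DIS3L the difference was 0.48 and 0.41 in fractions 7 and 8, with no overlap, and -0.08 and -0.28 in fractions 3 and 4, where the rescues overlapped. An exact two-sided permutation test of 3 against 3 cannot go below 0.1. It gave 0.1 in the 10 comparisons without overlap (0.12 adjusted over the 12), and 0.7 and 0.2 (0.7 and 0.218 adjusted) for DIS3 to DIS3L in fractions 3 and 4. How many other gene pairs were free of overlap was not counted. Of single genes, 48.5% to 65.1% were called after TMM between rescues within a fraction label.

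**Figure D3:**
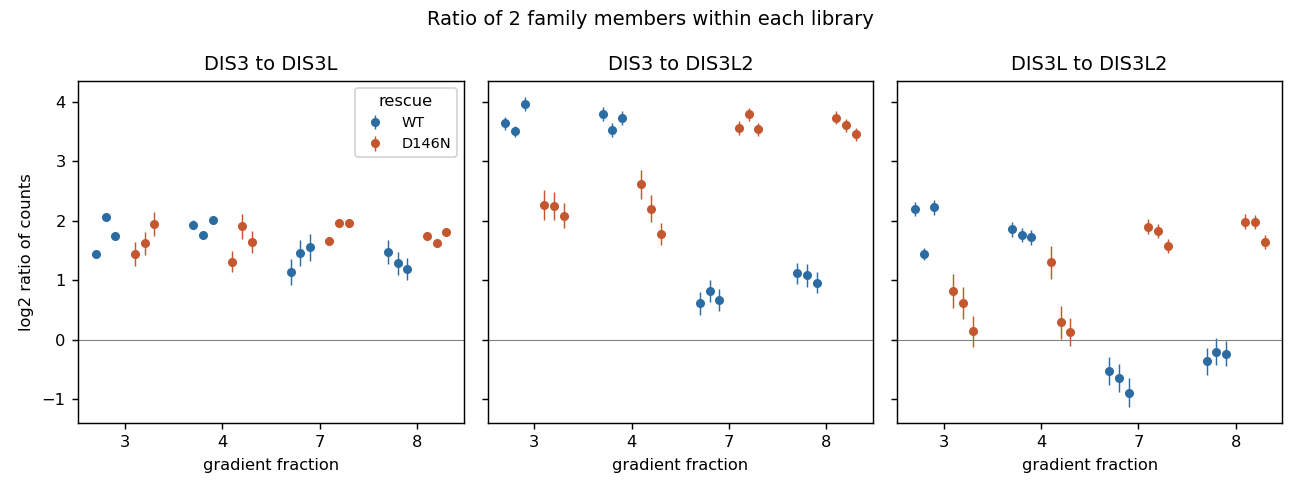
Log2 ratio of the counts of 2 family members within each library, by gradient fraction, with 1 point per library, bars for the standard error from counting, and colours for the rescue. The ratio of DIS3 to DIS3L stays between 2.20 and 4.18 on the linear scale, whereas both ratios to DIS3L2 are lowest in WT fractions 7 and 8.

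Within a fraction label, D146N was set against WT in the same edgeR fit. In fraction 3 DIS3 was lower in D146N by a log2 fold change of -0.74 after TMM (SE 0.11, adjusted p 1.04e-06) and DIS3L by -0.67 (SE 0.13, adjusted p 7.68e-05). DIS3L2 was higher by 0.74 after TMM (SE 0.20, adjusted p 0.00260), but stood at -2.03 on library totals, and without WT fraction 3 replicate 3 it was no longer called (0.45, adjusted p 0.0705). All 3 genes were called there, beside 49.7% of all genes. In fraction 4, where 48.5% were called, DIS3 was lower by -0.60 (SE 0.11, adjusted p 2.93e-05). DIS3L did not pass in fraction 4 (-0.31, SE 0.13, 95% interval -0.58 to -0.04, adjusted p 0.0534). It passed with no filter on low counts (-0.42, adjusted p 0.0140) and on library totals (-3.09). On library totals the median of all genes was -2.86 and 16655 of 18907 genes were called. DIS3L also passed without WT fraction 4 replicate 1 (-0.45), 2 (-0.36) or 3 (-0.49), and without D146N fraction 4 replicate 1 (-0.42). In these fits the median of all genes was -0.20, -0.20, -0.21 and -0.10, against -0.09 with all libraries. DIS3L2 was higher by 0.93 after TMM (SE 0.20, adjusted p 0.000241) and stood at -1.85 on library totals.

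In fractions 7 and 8 the signs after TMM were reversed for each of the 3 genes. DIS3 was higher in D146N by 1.41 (SE 0.12, adjusted p 8.63e-13) in fraction 7 and by 1.33 (SE 0.12, adjusted p 2.27e-12) in fraction 8. DIS3L was higher by 0.92 (SE 0.14, adjusted p 4.18e-07) and 0.94 (SE 0.13, adjusted p 1.36e-07). DIS3L2 was lower by -1.52 (SE 0.19, adjusted p 9.78e-09) and -1.20 (SE 0.19, adjusted p 9.55e-07) after TMM, but higher by 1.42 and 1.51 on library totals. All 3 genes were called in both fractions, beside 63.5% of all genes in fraction 7 and 65.1% in fraction 8. Without WT fraction 8 replicate 3 the fraction 8 values were 1.19, 0.85 and -1.30. Since the fraction labels held unlike RNA in the 2 rescues, none of these differences can be assigned to the mutation.

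Fractions of like RNA were therefore also compared across labels. In D146N fractions 7 and 8 against WT fractions 3 and 4, none of the 3 genes passed after TMM. DIS3 differed by -0.11 (SE 0.07, 95% interval -0.26 to 0.04, adjusted p 0.337), DIS3L by -0.08 (SE 0.08, -0.24 to 0.08, adjusted p 0.527) and DIS3L2 by -0.05 (SE 0.12, -0.30 to 0.21, adjusted p 0.854). The intervals allow changes of that size, so the test does not show equal levels, and 17.3% of all genes were called. On library totals the 3 differences were 0.04, 0.06 and 0.10.

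In D146N fractions 3 and 4 against WT fractions 7 and 8, the low groups, all 3 genes were called, beside 29.2% of all genes. DIS3 was higher by 0.81 (SE 0.09, adjusted p 4.64e-09), at percentile 91.2, and DIS3L by 0.53 (SE 0.11, adjusted p 0.000298), at percentile 82.1. DIS3L2 was lower by -0.48 (SE 0.15, adjusted p 0.0131), at percentile 17.5. Here the 2 scales gave the same signs, with 0.71, 0.43 and -0.57 on library totals. After TMM the libraries did not overlap for DIS3 and DIS3L, as for 12.6% of all genes, and overlapped for DIS3L2. On library totals those of DIS3L overlapped too. DIS3L2 lost its call without D146N fraction 4 replicate 1, its library of lowest count (-0.35, adjusted p 0.0719). Without WT fraction 8 replicate 3 the 3 values were 0.73, 0.47 and -0.54.

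**Figure D4:**
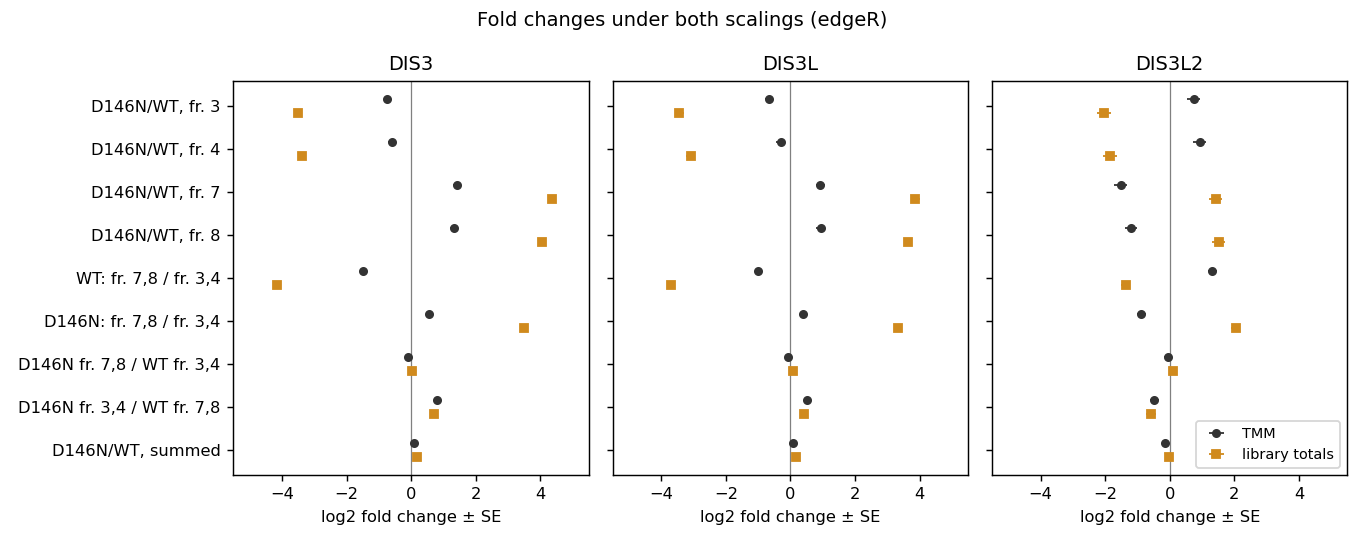
Log2 fold change with its standard error for DIS3, DIS3L and DIS3L2 in 9 comparisons, after TMM (dark circles) and on library totals (orange squares), both from edgeR. DIS3L2 changes sign between the scales in the first 6 comparisons, each called, while the comparison of D146N fractions 3 and 4 with WT fractions 7 and 8 has the same sign on both scales for each gene.

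None of the 3 genes passed between neighbouring fractions. The log2 differences of fraction 4 against 3 ran from -0.20 (DIS3L, WT) to 0.15 (DIS3L, D146N), and those of fraction 8 against 7 from -0.30 (DIS3L2, WT) to 0.12 (DIS3L, D146N). The interval was widest for DIS3L2 in D146N, -0.32 to 0.59 for fraction 4 against 3. edgeR called 0 of 18907 genes in each of these 4 contrasts, a rate of 0%, with 653 to 1727 at an unadjusted p under 0.05. limma voom also called 0, and DESeq2 called 4 in fraction 8 against 7 of WT and 0 in the other 3. For WT the edgeR count for fraction 8 against 7 was 339 without fraction 8 replicate 2, 188 without replicate 1 and 1 without replicate 3.

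The 4 fractions of each set were summed to compare the rescues, with each fraction weighing by its depth. The low groups had 30.36 to 32.99 M counts per library in WT and 23.83 to 28.13 M in D146N. The high groups had 21.15 to 27.01 M in WT and 21.21 to 22.89 M in D146N. The low groups therefore made up more of every WT sum than of any D146N sum, so the sums still depend on fraction. In these sums DIS3 had 43.3, 47.1 and 43.6 CPM in WT replicates 1 to 3 and 47.7, 52.8 and 50.8 in D146N. DIS3L had 14.0, 12.7 and 12.4 against 15.0, 15.3 and 13.9, and DIS3L2 had 4.75, 5.42 and 4.59 against 4.27, 4.72 and 5.41. D146N thus lay above WT in every sum of DIS3 on this scale, on which 43.7% of all genes did not overlap between the rescues. How much of this difference came from the depth of the fractions was not tested. D146N overlapped WT in the other 2 genes and, after TMM, in all 3. None of the 3 passed after TMM, beside 27.4% of 20581 genes called. The log2 differences were 0.08 for DIS3 (SE 0.05, 95% interval -0.03 to 0.18, adjusted p 0.283), 0.08 for DIS3L (SE 0.07, -0.07 to 0.22, adjusted p 0.444) and -0.13 for DIS3L2 (SE 0.11, -0.36 to 0.09, adjusted p 0.387). On library totals DIS3 passed at 0.17 (adjusted p 0.00891), beside a median of all genes of 0.10. In that fit 6323 of 20581 genes were called, 4725 of them higher. A setting chosen after the data were seen weighted the 4 fractions equally, as the mean of their log2 fold changes and not of counts. In it 4377 of 18907 genes were called. DIS3 was higher by 0.35 (adjusted p 1.89e-05), DIS3L by 0.22 (adjusted p 0.0151), and DIS3L2 was lower by -0.26 (adjusted p 0.0470). By construction this contrast averages the comparisons across labels given above. Its low groups weigh as much as its high groups, so these values are not changes in the level over the 4 fractions together.

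The partners of the family members in RNA decay were read in the same fits. Of 13 genes of the exosome core and its nuclear partners, all tested, 8 were higher and 4 lower in WT fractions 7 and 8 after TMM, with a median of 0.52 (all genes -0.18), whereas 0 were higher and 12 lower on library totals, with a median of -2.14. Of all genes 34.6% were higher and 39.3% lower after TMM, and 7.65% higher and 83.6% lower on library totals. EXOSC8 and EXOSC9, which both belong to the ring of the exosome, stood on opposite sides. EXOSC8 had 55.5 ± 3.20 CPM (SD, n = 3) in WT fraction 3 and 21.8 ± 1.35 in WT fraction 7, a change of 1.498 after TMM (SE 0.06, adjusted p 1.19e-22) and -1.18 on library totals. EXOSC9 had 53.8 ± 3.60 and 3.21 ± 0.453 CPM, a change of -1.26 after TMM (SE 0.07, adjusted p 2.32e-17) and -3.94 on library totals, close to that of DIS3. MTREX, the helicase that delivers nuclear RNA to the exosome, changed by -0.78 (SE 0.10, adjusted p 5.16e-08), and the cap subunit EXOSC2 by 0.58 (SE 0.07, adjusted p 8.91e-10), which was -2.09 on library totals. In D146N 3 of the 13 were higher and 5 lower after TMM (29.9% and 30.3% of all genes), and 13 were higher and 0 lower on library totals (88.9% and 4.08% of all genes). EXOSC8 changed there by -1.17 after TMM and 1.75 on library totals, EXOSC9 by 0.70 and 3.63, and EXOSC2 by -0.31 and 2.61, while MTREX did not pass after TMM (0.10, adjusted p 0.434).

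Of 4 cytoplasmic exosome partners, 2 were lower in WT fractions 7 and 8 and 2 did not pass, with a median of -0.46, and all 4 were lower on library totals, beside 39.3% and 83.6% of all genes lower on the 2 scales. The SKI complex helicase SKIC2 changed by -1.25 and the SKI scaffold SKIC3 by -0.78 (adjusted p 1.60e-07 and 7.88e-10), in the direction of DIS3L. SKIC8, a SKI subunit, stood at 0.16 (adjusted p 0.144) and HBS1L, whose short isoform links the SKI complex to the exosome and whose long isoform acts on stalled ribosomes, at -0.15 (adjusted p 0.0557). In D146N 3 were higher and 1 did not pass, and all 4 were higher on library totals, beside 29.9% and 88.9% of all genes. SKIC2 rose by 0.58, SKIC3 by 0.38 and HBS1L by 0.25, and SKIC8 stood at 0.09 (adjusted p 0.473).

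Of the uridylation factors, 3 of 4 listed genes were tested, without LIN28A. The uridyltransferases TUT4 and TUT7, which tail RNAs for DIS3L2, rose by 0.60 and 0.46 in WT fractions 7 and 8 after TMM (adjusted p 2.64e-09 and 0.000424), but stood at -2.09 and -2.22 on library totals. LIN28B, the third gene tested of this list, changed by -0.51 (adjusted p 2.64e-06) and by -3.19 on library totals. In D146N the signs after TMM were reversed, with TUT4 at -0.46, TUT7 at -0.64 and LIN28B at 0.36, all called (60.2% of all genes), while all 3 were higher on library totals (88.9% of all genes). In the summed fractions, where 27.4% of all genes were called, TUT7 was lower in D146N by -0.38 (adjusted p 0.000226), and TUT4 by -0.17 after TMM (adjusted p 0.0106), though TUT4 did not pass on library totals (-0.08, adjusted p 0.279). Of the other lists, 4 of 13 exosome genes were higher and 1 lower in the same sums after TMM. Of the 4 cytoplasmic partners 2 were higher and 0 lower.

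Where fractions of like RNA were compared, fewer partners of each list were called than between the fraction pairs within a rescue. So were fewer of all genes, since these pairs were chosen for their likeness. In D146N fractions 7 and 8 against WT fractions 3 and 4, where 17.3% of all genes were called, these were 5 of 13 exosome genes, 1 of 4 cytoplasmic partners and 2 of 3 uridylation factors. In D146N fractions 3 and 4 against WT fractions 7 and 8, where 29.2% were called, they were 5 of 13, 0 of 4 and 1 of 3, beside all 3 family members.

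The genes whose levels over the 8 groups were most like those of a member were found by the root mean square difference of centred mean log2 CPM, among 8369 genes of at least 5 CPM. Nearest to DIS3 were WLS (0.035), LBR (0.054) and UBQLN2 (0.057). Nearest to DIS3L were MXRA7 (0.048), SINHCAF (0.059) and KDM7A (0.059), and nearest to DIS3L2 were NDUFA10 (0.036), MARK1 (0.051) and UBE3A (0.053). WLS carries Wnt proteins to the cell surface, LBR is the lamin B receptor and UBE3A a ubiquitin ligase. Many genes were nearly as like, since 1821 lay within 0.25 of DIS3, 2791 of DIS3L and 560 of DIS3L2. From DIS3, DIS3L ranked 1063 at 0.20, whereas DIS3L2 ranked 7025 at 1.16. These likenesses are descriptions over 8 groups that fall into 2 sets of like libraries.

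Other annotated genes overlap each of the 3. BORA, a gene on the opposite strand, overlaps the 3' side of DIS3 by 4028 bases in RefSeq GRCh38.p14 (the build of hg38) and had 2.099 to 22.3 CPM, against 4.54 to 115 for DIS3. DIS3L-AS1 overlaps DIS3L by 191 bases and reached at most 0.225 CPM. MIR562, within the span of DIS3L2, had at most 0.0875 CPM, and the pseudogene NRBF2P6, which overlaps its end by 1322 bases, at most 0.850 CPM. Whether strand was used in counting is not given in the sources used here.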

How the data were processed

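The deposited table held expected counts per Ensembl gene in 24 libraries, not normalized by the authors, judging from column totals that differ and from values with fractional parts (73.3% of nonzero values were whole within 0.005). Per the submitters' processing notes, Bowtie2 2.3.5, HISAT2 2.1.0, SAMtools and featureCounts 1.5.1 were used with hg38, with no role given for each. Symbols were assigned to 99.8% of rows. Values were rounded and fitted with edgeR 4.0.16 in R 4.3.3 (filterByExpr, TMM, robust quasi-likelihood fit of 8 group means, biological coefficient of variation 13.8%). Genes were called at a Benjamini-Hochberg adjusted p under 0.05. The columns matched the sample titles for all 24 libraries. Named genes besides the members were the partners of highest mean CPM (up to 4 a list) and the 3 genes of most like pattern per member, with 0.5 counts added before taking logs. The members and lists were chosen with earlier results of these data known. Alternatives were library totals, median-of-ratios factors, DESeq2 1.42.0, limma 3.58.1 voom, no filter, only the compared libraries, leaving out 6852 small and mitochondrial RNA rows, a replicate block and leaving out each library. The scripts were tested on simulated data. In those data most genes were set equal between the rescues compared, so a shift of the typical gene was not tried.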

Additional observations from a re-analysis of the deposited data

Results flagged for a closer look

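The change between the fraction pairs differed between the rescues for each of the 3 genes by edgeR's test of the difference itself. The difference, D146N minus WT after TMM, was 2.04 for DIS3, 1.42 for DIS3L and -2.20 for DIS3L2, and the last became 3.40 on library totals. In the same test 77.1% of all genes were called, and the RNA of the fraction labels was crossed between the rescues, so the mutation, the numbering of the fractions and an exchange of labels cannot be told apart.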

How the results depend on the processing

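DESeq2, limma voom, median-of-ratios factors and the fit without small and mitochondrial RNAs changed the direction or call of none of the 42 fold changes of the 3 genes, nor did the fit to only the compared libraries in the 36 it covers. On library totals DIS3L2 turned over in 7 comparisons in which it was called: D146N against WT in fractions 3 (-2.03), 4 (-1.85), 7 (1.42) and 8 (1.51), fractions 7 and 8 against 3 and 4 in WT (-1.36) and D146N (2.04), and their difference (3.40). By construction this scale leaves the shift of the typical gene in place. DIS3L in fraction 4, which missed the threshold, passed on library totals (-3.09, median of all genes -2.86), with no filter (-0.42) and with the replicate block (-0.31, adjusted p 0.0376). Leaving out 1 library at a time, it ran from -0.49 to -0.24 and passed without each library of WT fraction 4 and without D146N fraction 4 replicate 1. In D146N fractions 7 and 8 against WT fractions 3 and 4, where none of the 3 genes was called, all 3 also changed sign on library totals (0.04, 0.06 and 0.10), as DIS3L2 did in D146N fraction 8 against 7, again not called. In the summed fractions, where the low groups weighed more in WT, DIS3 passed on library totals (0.17, median of all genes 0.10). There 6323 of 20581 genes were called. The mean of the 4 log2 fold changes within a fraction is another measure than the sums and was chosen after the data were seen. In it DIS3, DIS3L and DIS3L2 passed (0.35, 0.22 and -0.26), and 4377 of 18907 genes were called. The summed values missed the threshold whichever replicate was left out.

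Without 1 library DIS3L2 ran from 0.45 to 0.84 in fraction 3 and from -0.60 to -0.35 in D146N fractions 3 and 4 against WT fractions 7 and 8. The log2 ratio of DIS3 to DIS3L in fraction 3 ran from -0.23 to 0.08, and was 0.076 without WT replicate 2 and 0.035 without D146N replicate 1. TMM moved the CPM shares in fractions 7 and 8 to 26.5% and 59.6% (DIS3, WT and D146N), 33.2% and 57.0% (DIS3L) and 71.6% and 35.6% (DIS3L2). Counts of called genes moved on library totals to 16746 from 9398 in fraction 3, to 16655 from 9163 in fraction 4, to 17572 from 11387 for the D146N fraction pairs, and to 1 from 0 in WT fraction 8 against 7. With no filter the 4 neighbouring contrasts called 5 and 137 in WT and 2 and 4 in D146N, in place of 0, and with only the libraries compared fraction 4 against 3 of D146N called 1.

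Replicate numbers did not pair the libraries: deviations of same-numbered libraries of 1 rescue correlated at -0.10 to 0.05 over 7025 genes, and 7 of 24 libraries correlated best with their own number. The replicate block changed no other call of the 3 genes, and the called genes went from 9398 to 9305 in fraction 3. The counts of DIS3L2, 39 to 260 per library, limit its precision most.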
